A study of Rattus norvegicus with 11 samples.

Results

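Oxidative stress defence in the retina was examined through 5 genes chosen by name and Ensembl identifier, of which 4 had a row in the gene table of 12037 genes. These were Nfe2l2 (ENSRNOG00000001548), Hmox1 (ENSRNOG00000014117), Sod1 (ENSRNOG00000002115) and Cat (ENSRNOG00000008364). The fifth, Nqo1 (ENSRNOG00000012772), which encodes a quinone reductase, had no row in that table and was not analysed here. All 4 that were present passed the filter on low counts. The rule that names them uses no measured value, but it was set with earlier results of these data known.

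Nfe2l2 encodes NRF2, a transcription factor that is held in the cytoplasm and degraded until oxidants or electrophiles modify its partner KEAP1. Once released, NRF2 enters the nucleus and switches on genes that carry antioxidant response elements, with Hmox1 and Nqo1 among the best known. Hmox1 encodes haem oxygenase 1, the inducible enzyme that breaks down haem. Sod1 encodes the copper and zinc superoxide dismutase of the cytosol, which turns superoxide into hydrogen peroxide, and Cat encodes catalase, the peroxisomal enzyme that turns hydrogen peroxide into water and oxygen. Photoreceptors consume much oxygen, and oxidative damage is a known feature of retinal degeneration.

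RNA sequencing was performed on retinas of 11 female rats in 3 groups. P23H-1 rats are hemizygous for a rhodopsin transgene with the P23H mutation, come from a cross of transgenic line 1 with Long Evans rats (strain label P23HxLE), and lose their photoreceptors progressively. The drug was tested by comparing P23H rats given halofantrine, an antimalarial drug (n = 4), with P23H rats given its solvent DMSO (n = 5), both as 5 µL injections into the vitreous. The labels give a range of 20 to 100 µM without the concentration for these retinas, and the age at collection was not given for them in the sources used here. The 2 wild-type rats were untreated and of another cross (SDxLE), so genotype, cross and injection cannot be told apart in any comparison with them. Their titles also end in L and those of all 9 P23H samples in R, a letter whose meaning was not given in the sources used here and which cannot be told apart from genotype either. The numbers in the sample titles fall in separate blocks by group, lowest for halofantrine, then DMSO, then wild type. Whatever these numbers record cannot be told apart from the drug or from genotype. Retinal identity was not checked against marker genes, because the table holds identifiers without symbols and the reference used here pairs none of them. In whole retina, fewer cells of a type and less RNA per cell cannot be told apart.

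Library totals lay between 11685202 and 34198536 estimated counts. P23H DMSO replicate 3 and P23H halofantrine replicate 1 stood apart from the rest. Their mean correlation with their own group, across genes in log2 counts-per-million (CPM), was 0.8286 and 0.932, where the other DMSO libraries had 0.933 to 0.943 and the other halofantrine libraries 0.961 to 0.967. The means of the other libraries include the one that stood apart in their group. The highest correlation with any library was 0.981 to 0.990 for the other 9, and 0.844 and 0.942 for the 2 that stood apart. Counts of transcripts outside the gene table made up 3.41% and 3.79% of these libraries, and 1.58% to 1.90% of the other 9. Fold changes that rest on them are given below with and without 1 or both of them. Some shares of all genes are given with all libraries only. The libraries that stood apart were picked out from these same data, so errors and p-values from fits without them may be too small. Levels are CPM as deposited by the authors, scaled to effective library size, and fold changes are from the count model, which used its own scaling. The CPM values are not divided by transcript length, so levels are compared between libraries and not between genes.

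Nfe2l2 was measured first, as the regulator of the pathway. Its level was 22.8 and 25.4 CPM in the wild-type retinas. The DMSO retinas had 37.2, 39.7, 119, 40.1 and 36.9 CPM in replicates 1 to 5, and the halofantrine retinas had 62.0, 37.3, 40.6 and 34.4 CPM in replicates 1 to 4. All 9 P23H retinas were thus above both wild-type retinas, and both P23H groups overlapped. The high values were those of P23H DMSO replicate 3 and P23H halofantrine replicate 1, while the remaining 7 P23H retinas lay between 34.4 and 40.6 CPM.

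Across all 11 libraries, the excess of Nfe2l2 in DMSO over wild type did not pass the adjusted threshold of 0.05 in the quasi-likelihood test of edgeR, and the log2 fold change was 1.21 (SE 0.470, edgeR adjusted p 0.0867). Without P23H DMSO replicate 3 the log2 fold change was smaller and its error smaller still, at 0.66 (SE 0.201, edgeR adjusted p 0.0287). For halofantrine against wild type the log2 fold change was 0.90 (SE 0.474, edgeR adjusted p 0.217), and 0.84 (SE 0.203, edgeR adjusted p 0.0104) without that DMSO library, which enters this comparison through the shared estimate of spread and the scaling. With P23H halofantrine replicate 1 left out as well, DMSO and halofantrine were above wild type by 0.67 (SE 0.102, edgeR adjusted p 0.000575) and 0.63 (SE 0.107, edgeR adjusted p 0.00114), or 1.59-fold and 1.55-fold. Within the DMSO group the coefficient of variation of Nfe2l2 fell from 66.3% to 4.33% when replicate 3 was left out, where the median over all genes fell from 14.7% to 9.67%.

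Hmox1, the induced enzyme of the set, had the lowest counts and the widest spread. It was at 0.786 and 0.947 CPM in wild type, from only 13 and 11 counts. The DMSO retinas had 5.17, 3.08, 110, 3.16 and 3.34 CPM, and the halofantrine retinas had 6.79, 2.44, 2.01 and 2.98 CPM. Every P23H retina was again above both wild-type retinas, although the counting intervals of the nearest pair overlapped, at 0.473 to 1.70 CPM in wild type replicate 2 and 1.39 to 2.81 CPM in halofantrine replicate 3 (exact Poisson 95% intervals, counting error only). P23H DMSO replicate 3 held 2186 counts of Hmox1, and its level had an interval of 105.3 to 114.6 CPM, far above the interval of every other retina.

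The fitted excess of Hmox1 in DMSO over wild type was 4.85 on the log2 scale with all libraries (SE 1.88, edgeR adjusted p 0.0875) and 2.06 without P23H DMSO replicate 3 (SE 0.557, edgeR adjusted p 0.0170), or 4.18-fold. For halofantrine against wild type it was 2.09 with all libraries (SE 1.73, edgeR adjusted p 0.421). Without that DMSO library it was 2.05 (SE 0.557, edgeR adjusted p 0.0183), and without halofantrine replicate 1 as well it was 1.51 (SE 0.381, edgeR adjusted p 0.00906), or 2.86-fold. The SE for halofantrine against wild type thus shrank with each library left out, and of these 3 estimates the one without halofantrine replicate 1 was lowest.

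**Figure D1:**
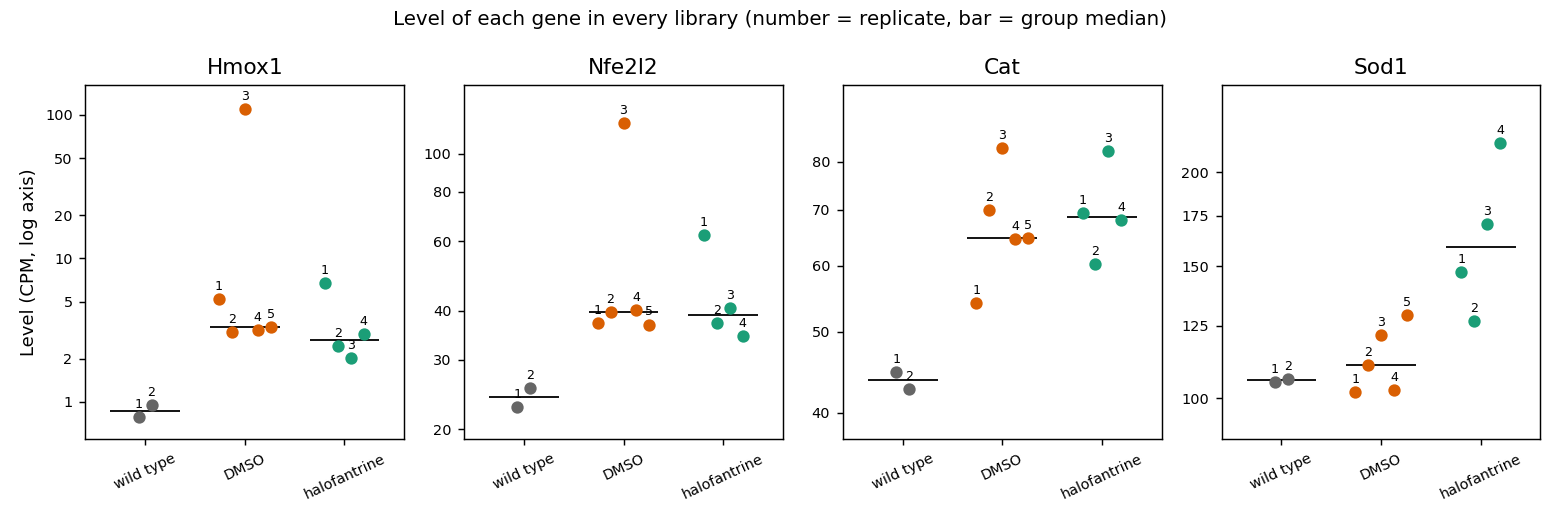
Level of each gene in every library, in deposited CPM on a log axis whose range differs between panels. Each point is 1 retina labelled with its replicate number, and bars are group medians. Hmox1, Nfe2l2 and Cat are above both wild-type retinas in all 9 P23H retinas, Hmox1 and Nfe2l2 are far above the rest in DMSO replicate 3 (110 and 119 CPM), and Sod1 is highest in halofantrine replicate 4 (219 CPM).

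The place of each gene within the 2 libraries that stood apart was then compared with that of all 12031 genes tested. The measure was log2 CPM in the library minus the mean of the other libraries of its group, with a prior count of 2, which understates differences of low genes such as Hmox1. In P23H DMSO replicate 3, Hmox1 was 4.83 above the rest of its group and ranked 48 from the top. Nfe2l2 was 1.57 above it and ranked 673, so that 5.59% of genes were as high. Cat and Sod1 lay nearer to the middle of the distribution, at 0.33 and 0.07, where 23.9% and 40.1% of genes were as high. The spread over all genes was itself wide in this library, with an SD of 0.893, against 0.313 to 0.406 in the other DMSO libraries.

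P23H halofantrine replicate 1 gave the same order for the pair at the top. Hmox1 was 1.42 above the other halofantrine libraries and ranked 164, and Nfe2l2 was 0.71 above them and ranked 718. Cat and Sod1 were at -0.03 and -0.21. Hmox1 and Nfe2l2 thus lay in the upper tail in both libraries (5.97% of genes were as high as Nfe2l2 in the latter), and Cat and Sod1 did not. The activity of NRF2 was not measured, since these are RNA levels. These ranks describe 1 library each and carry no test. The share of counts outside the gene table was also highest in these libraries, and its part in these values was not tested.

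**Figure D2:**
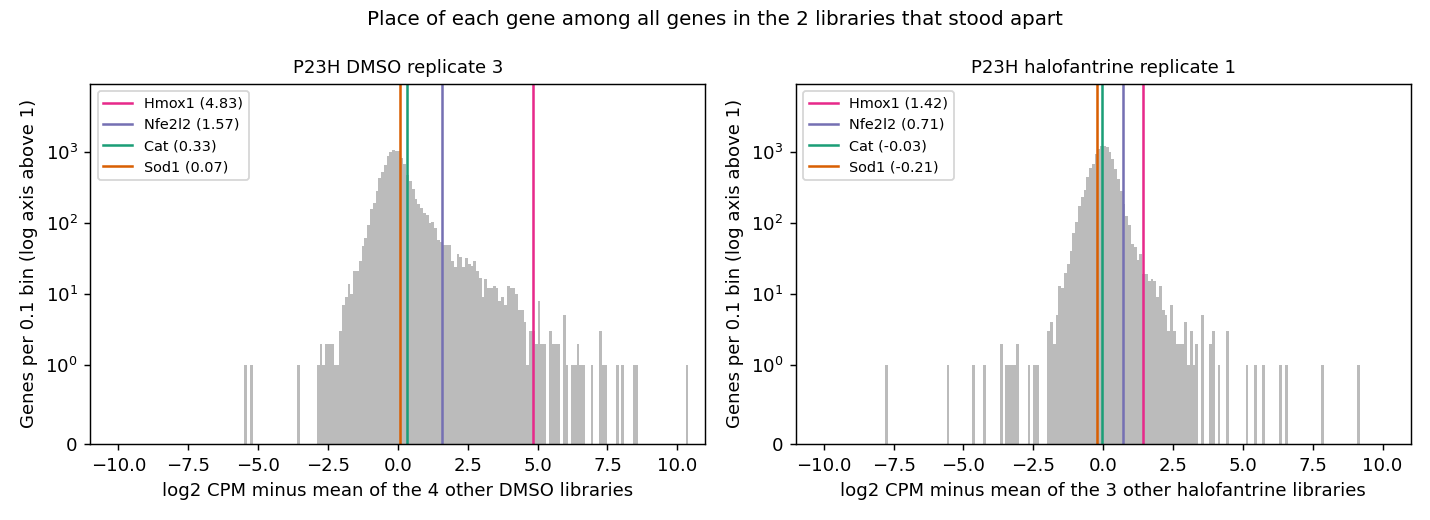
Log2 CPM of every gene in each of the 2 libraries that stood apart, minus the mean of the other libraries of the same group (horizontal axis), as the number of genes per bin (vertical axis, log above 1). Vertical lines mark the 4 genes. Hmox1 and Nfe2l2 lie in the upper tail in both libraries (4.83 and 1.57, and 1.42 and 0.71), whereas Cat and Sod1 lie near the middle.

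Cat, the enzyme that removes hydrogen peroxide, was higher in both mutant groups. Its level was 44.8 and 42.7 CPM in wild type. The DMSO retinas had 54.1, 70.03, 83.1, 64.6 and 64.7 CPM, and the halofantrine retinas had 69.3, 60.3, 82.4 and 68.0 CPM. The lowest P23H retina was above both wild-type retinas, and both P23H groups covered almost the same range. Cat rose by 0.67 in DMSO on the log2 scale (SE 0.154, edgeR adjusted p 0.0134) and by 0.72 in halofantrine (SE 0.159, edgeR adjusted p 0.0165), or 1.59-fold and 1.65-fold over wild type. Without both libraries that stood apart these were 0.53 (SE 0.138, edgeR adjusted p 0.0107) and 0.68 (SE 0.145, edgeR adjusted p 0.00387). Both calls were lost when either wild-type retina was left out, where edgeR gave an adjusted p of 0.116 or 0.159 for DMSO and of 0.132 or 0.180 for halofantrine. The fold change itself then stayed between 0.60 and 0.72 on the log2 scale.

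Sod1 had another pattern. It was at 105 and 106 CPM in wild type and at 102, 111, 121, 103 and 129 CPM in DMSO replicates 1 to 5, so that the wild-type values lay inside the DMSO range. The halofantrine retinas had 147, 127, 171 and 219 CPM. All of them were above both wild-type retinas, and the halofantrine and DMSO groups overlapped in 1 pair only, halofantrine replicate 2 at 127 CPM and DMSO replicate 5 at 129 CPM. The wild-type and DMSO levels did not differ beyond their spread, with a log2 fold change of 0.15 and a 95% interval of -0.24 to 0.53. Sod1 rose in halofantrine over wild type by 0.69 on the log2 scale (SE 0.186, edgeR adjusted p 0.0360), or 1.61-fold. This call was lost in 7 of the 11 fits that left out 1 library, with an edgeR adjusted p of up to 0.257. These were the fits without either wild-type library, without DMSO replicate 1, 2 or 4, and without halofantrine replicate 3 or 4, and the log2 fold change stayed between 0.54 and 0.79 in all 11. Without both libraries that stood apart, the log2 fold change of Sod1 in halofantrine over wild type was 0.70 (SE 0.196, edgeR adjusted p 0.0149).

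Taking the 4 genes side by side, 1 of 4 passed the adjusted threshold in DMSO against wild type, where 21.2% of all genes did, and 2 of 4 in halofantrine against wild type, where 13.1% of all genes did. Without P23H DMSO replicate 3 these were 3 of 4 (all genes 30.3%) and 4 of 4 (all genes 29.8%). All of these differences were in the direction of higher in P23H, a direction and threshold met by 14.4% and 14.0% of genes without that library. Levels in all 9 P23H retinas were above both wild-type retinas for 3 of 4 genes, where 16.7% of genes had that order. Taken alone, the halofantrine retinas were above both wild-type retinas for 4 of 4 genes, an order that 23.2% of genes had. Hmox1 is counted in both orders, and these shares are not limited to genes as low in wild type as Hmox1. Genes higher than wild type and past the threshold made up 10.9% for DMSO and 5.55% for halofantrine with all libraries. Without both libraries that stood apart 3 of 4 (all genes 44.8%) and 4 of 4 (all genes 45.5%) passed. DESeq2 called 2 of the 3 genes for which it gave a p in DMSO against wild type (all genes 29.0%) and 2 of 3 in halofantrine against wild type (all genes 21.3%). Under limma-voom with sample weights 3 of 4 passed in each, where 59.9% and 55.0% of all genes did. The comparisons with wild type share the same 2 control retinas.

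**Figure D3:**
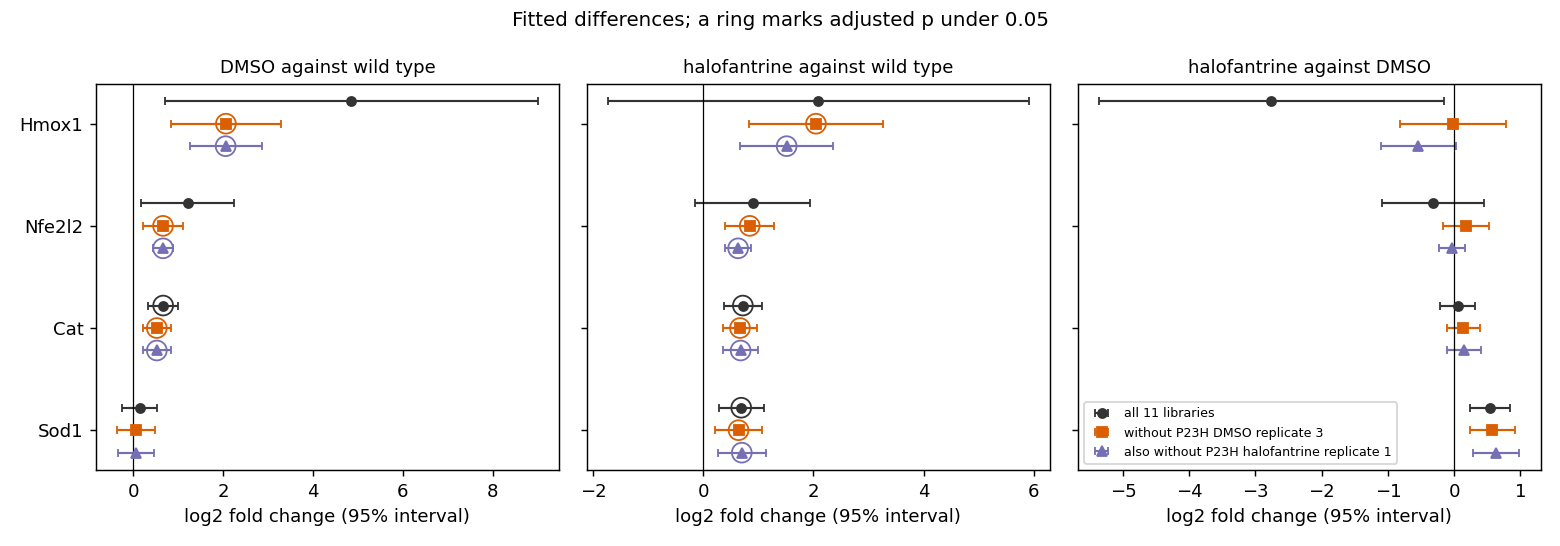
Fitted log2 fold changes (horizontal axis, whose range differs between panels) with 95% intervals for the 4 genes in the 3 comparisons, from all 11 libraries, without P23H DMSO replicate 3, and without P23H halofantrine replicate 1 as well. A ring marks an adjusted p under 0.05. Leaving out DMSO replicate 3 moves Hmox1 in DMSO against wild type from 4.85 to 2.06 and in halofantrine against DMSO from -2.76 to -0.02, while Cat and Sod1 move little.

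Whether halofantrine changed these genes in the mutant retina was then tested by comparing the drug with DMSO. None of the 4 passed the adjusted threshold in edgeR's quasi-likelihood test, a threshold passed by 0.00831% of all genes, that is by 1 of 12031. An unadjusted p under 0.05 was reached by 2 of the 4, Sod1 and Hmox1, where 10.9% of all genes reached it. With P23H DMSO replicate 3 left out, Hmox1 no longer reached it (edgeR unadjusted p 0.964). For none of the 4 were the drug and solvent groups free of overlap, where 2.89% of genes were. Without P23H DMSO replicate 3, and without both libraries that stood apart, 0 of 4 passed again, where 0.00831% and 0.0166% of genes did. Past the adjusted threshold were 0 of the 4 by limma-voom (all genes 0.00831%) and 0 of the 3 for which DESeq2 gave a p (all genes 0.29%). With sample weights, limma-voom called 1 of the 4, Sod1, in a fit that called 6.17% of all genes.

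Sod1 was 0.54 higher on the log2 scale with halofantrine (SE 0.139, unadjusted p 0.00252, edgeR adjusted p 0.407), or 1.46-fold, with a 95% interval of 0.24 to 0.85. It ranked 66 among 12031 genes by p. The difference had the same direction in all alternatives, between 0.39 and 0.70, with an adjusted p between 0.0211 and 0.788. The lowest value was the one without halofantrine replicate 4, the retina with the highest Sod1 level. Without both libraries that stood apart, the difference was 0.64 (SE 0.158, edgeR adjusted p 0.186).

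Hmox1 was 2.76 lower on the log2 scale with halofantrine (SE 1.18, unadjusted p 0.0396, edgeR adjusted p 0.453), and that difference was carried by 1 DMSO retina. Without P23H DMSO replicate 3 it was -0.02 (95% interval -0.82 to 0.78, edgeR adjusted p 0.988). Without halofantrine replicate 1 as well it was -0.54 (95% interval -1.11 to 0.02, edgeR adjusted p 0.296). In that last set of 7 retinas, the 3 halofantrine levels of 2.01 to 2.98 CPM lay below the 4 DMSO levels of 3.08 to 5.17 CPM, an order that 5.69% of all genes had. That order rests on leaving out halofantrine replicate 1, which at 6.79 CPM lay above those 4 DMSO levels.

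Nfe2l2 and Cat gave no difference between drug and solvent that passed the threshold. Nfe2l2 was at -0.32 with all libraries (95% interval -1.09 to 0.45, edgeR adjusted p 0.763), and at -0.03 without both libraries that stood apart, where the interval narrowed to between -0.22 and 0.16. Its direction was the opposite, at 0.18, when DMSO replicate 3 alone was left out. Cat was at 0.05 (95% interval -0.21 to 0.31, edgeR adjusted p 0.903), and at 0.15 without both libraries (95% interval -0.11 to 0.41). The levels in rising order of group median were wild type, halofantrine and DMSO for Nfe2l2 and Hmox1, and wild type, DMSO and halofantrine for Cat and Sod1. In none of these orders did the neighbouring P23H groups differ past the adjusted threshold.

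The transcript table was used to ask which transcripts made up these levels. Rows were matched to a gene where their counts added up to the gene's count within 0.5 in every library, and exactly 1 such row or pair of rows was found for each gene. Hmox1 corresponded to a single transcript (ENSRNOT00000019192.8), as did Cat (ENSRNOT00000011230.7). Sod1 was the sum of ENSRNOT00000097395.2 and ENSRNOT00000002885.8, and Nfe2l2 the sum of ENSRNOT00000110389.2 and ENSRNOT00000002114.8. The match rests on the counts, not on an annotation, and the division of reads between similar transcripts is an estimate of the alignment program.

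For Nfe2l2, ENSRNOT00000110389.2 held 74.7% to 91.8% of the counts in every retina. Both transcripts were high in P23H DMSO replicate 3, at 106 and 13.5 CPM, where the other DMSO retinas had 27.8 to 34.8 and 4.85 to 9.14 CPM. The share of the larger transcript in that retina was 88.7%, inside the range of the other retinas. For Sod1 the division was uneven between retinas of 1 group. ENSRNOT00000002885.8 held 47.0% and 45.2% in wild type, 41.0% to 72.8% in DMSO and 43.3% to 71.2% in halofantrine, so that the shares overlapped in all 3 groups. Its level was 49.4 and 48.0 CPM in wild type, 49.8 to 76.5 CPM in DMSO and 73.8 to 128 CPM in halofantrine. The other transcript, ENSRNOT00000097395.2, was at 55.6 and 58.2 CPM, 27.7 to 71.5 CPM and 36.6 to 96.8 CPM in the same order. The first lay above wild type in all 9 P23H retinas, though in DMSO replicate 3 by less than the wild-type retinas differed from each other, and the second did not. How many of all transcripts had that order was not computed, so it is given as a description only.

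**Figure D4:**
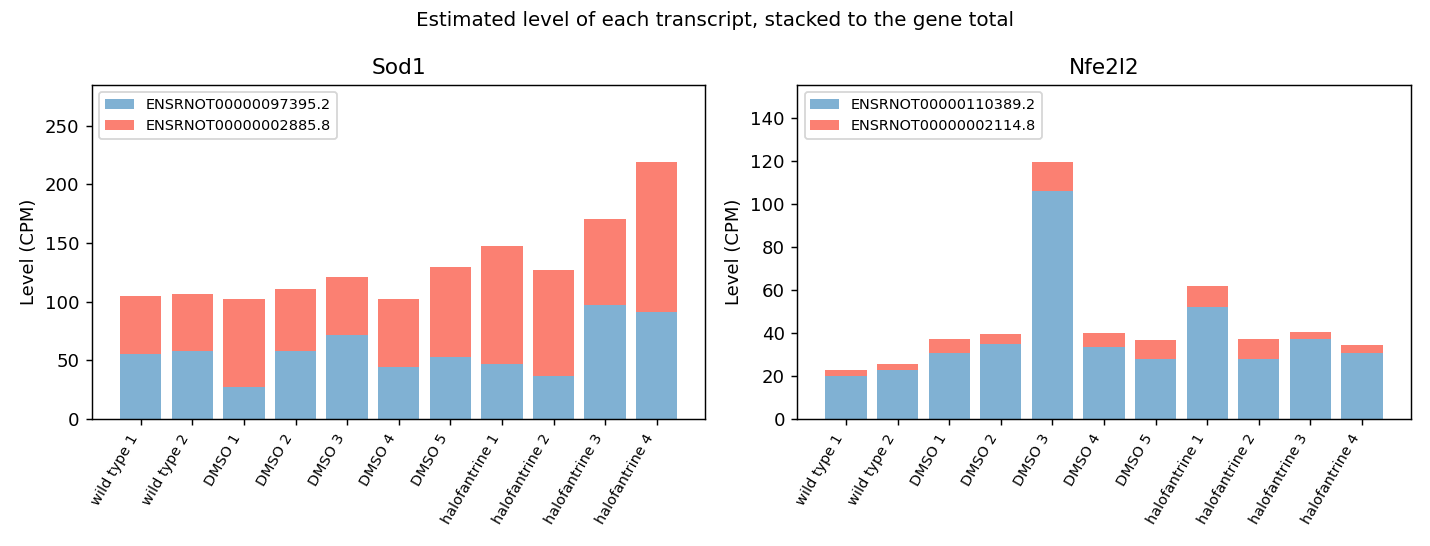
Level of each transcript of Sod1 and Nfe2l2 in every library, in CPM, stacked to the total of the gene. The Sod1 total rises from 105 and 106 CPM in wild type to 127 to 219 CPM in halofantrine with an uneven division between transcripts, and for Nfe2l2 the same transcript, ENSRNOT00000110389.2, makes up most of the total in each retina.

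The stretch around the start of the gene was examined for the antioxidant response element, through which NRF2 acts on its targets. Sequences of 300 bases, 250 before and 50 after the start, were taken from RefSeq (build GRCr8) for Nfe2l2, Sod1 and Cat. They are shown because the first is the regulator and the other 2 are the members that passed the test in P23H against wild type. RefSeq's start need not be the one used in these retinas. Capitals mark matches to TGACNNNGC, the core of the element, and to GGGCGG, the GC box, on either strand (CCGCCC is the GC box on the other strand, and neighbouring GC boxes may share a base).
Nfe2l2, chr3:81028950-81029249, minus strand: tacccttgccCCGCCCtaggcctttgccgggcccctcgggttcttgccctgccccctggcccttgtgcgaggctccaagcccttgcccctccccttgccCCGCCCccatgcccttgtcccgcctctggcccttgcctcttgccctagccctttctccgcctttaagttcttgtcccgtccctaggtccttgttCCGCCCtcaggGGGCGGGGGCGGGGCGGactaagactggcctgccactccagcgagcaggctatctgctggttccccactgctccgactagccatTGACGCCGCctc
Sod1, chr11:42942573-42942872, plus strand: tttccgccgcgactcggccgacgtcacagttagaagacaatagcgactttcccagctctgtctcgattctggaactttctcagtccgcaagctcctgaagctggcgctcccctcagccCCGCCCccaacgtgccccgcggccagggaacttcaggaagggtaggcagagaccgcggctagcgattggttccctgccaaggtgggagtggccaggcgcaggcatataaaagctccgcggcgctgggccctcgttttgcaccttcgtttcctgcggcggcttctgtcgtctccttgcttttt
Cat, chr3:110329477-110329776, minus strand: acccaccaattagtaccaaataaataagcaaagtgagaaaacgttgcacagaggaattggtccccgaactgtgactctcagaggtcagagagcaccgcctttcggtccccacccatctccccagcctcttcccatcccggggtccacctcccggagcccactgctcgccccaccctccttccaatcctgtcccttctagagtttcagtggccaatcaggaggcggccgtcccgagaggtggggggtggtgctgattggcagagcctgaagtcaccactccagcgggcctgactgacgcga

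The Nfe2l2 stretch holds 1 match to TGACNNNGC, TGACGCCGC, whose first base is at position 39 after the start. No match was found in those of Sod1, Cat and Nqo1, and Hmox1 has no entry in the table. Of 33469 such stretches in the table, 12.1% hold a match. The GC box was found 6 times in Nfe2l2, once each in Sod1 and Nqo1 and not in Cat, where 33.1% of all stretches hold it. The AP-1 motif TGANTCA and the E-box CACGTG were found in none of the 4, against 7.33% and 6.42% of all stretches. The G and C content was 68.0% in Nfe2l2, 61.3% in Sod1 and 59.3% in Cat, and the median over all stretches was 51.7%. Matches are a description of these letters, and no match speaks only of this window.

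Finally, the genes most like each member were sought by Pearson's r of log2 CPM over the 11 libraries, among 12031 genes. These values describe libraries that share 2 control retinas and 2 libraries that stood apart, and they carry no test. ENSRNOG00000016488 was most like Hmox1 (r = 0.997), with 17.5 CPM on average in wild type, 34.5 CPM in DMSO without replicate 3, 220 CPM in DMSO replicate 3 and 35.7 CPM in halofantrine. ENSRNOG00000019179 was most like Nfe2l2 (r = 0.993), at 1.27, 4.62, 61.0 and 6.07 CPM in the same order. For both genes the halofantrine mean includes replicate 1, which also stood apart, so it is not on a par with the DMSO mean. ENSRNOG00000020376 was most like Cat (r = 0.968), and ENSRNOG00000027039 most like Sod1 (r = 0.985). An r of at least 0.95 was reached by 232 genes for Hmox1 and 183 for Nfe2l2, but by 3 for Cat and 13 for Sod1. Without both libraries that stood apart, over 9 libraries, these counts were 95, 404, 58 and 114 in the same order, and different genes took the first place. Hmox1 and Nfe2l2 themselves were related at r = 0.957 over 11 libraries and at 0.857 over those 9. Cat was related to Nfe2l2 at 0.739 and 0.880 over the same sets, and Sod1 to Hmox1 at 0.03 and 0.19. Over those 9 libraries, 1150 of 12030 genes had an r of at least 0.9 with Nfe2l2.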

How the data were processed

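Strand-specific libraries of polyadenylated RNA from 1 retina sample per rat were sequenced by the authors, aligned to the Ensembl rat transcriptome with kallisto and summarised to genes with tximport. The deposited gene and transcript tables hold estimated counts, not scaled for depth, and the deposited CPM table holds a signal, each library's gene counts over a constant of its own. The filter behind the gene table was not given in the sources used here. Reads shared by similar transcripts are divided among them, and 70.9% of gene counts are whole. A deposited table of the authors' own drug comparison, with fold changes and p-values, was not used. Groups came from the labels, replicate numbers follow accession order, and each sample title carries a number of its own, read here as 1 rat each.

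Counts were rounded, filtered with filterByExpr (12031 genes kept) and scaled by TMM factors. A single fit over all 11 libraries was tested by quasi-likelihood in edgeR 4.0.16 (R 4.3.3). P-values were adjusted by Benjamini-Hochberg over all genes tested, with a threshold of 0.05, and standard errors were derived from the F statistic. The code was tested on simulated data. Alternatives were DESeq2 1.42.0, limma-voom (limma 3.58.1) with and without sample weights, other scalings, no filter, robust dispersion, P23H libraries alone and each library left out. The deposited effective library sizes were added after seeing the data. The members and lists were chosen with earlier results of these data known. Named were the 5 members and, for each of the 4 present, the gene of highest r, whose second place is not printed because no symbols were at hand. Lists of 129 pathway and marker genes fixed by symbol matched 0 identifiers, since 0 of 47357 reference genes carry one, and were not analysed here.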

Additional observations from a re-analysis of the deposited data

Results flagged for a closer look

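Of 12 sets of values searched for a library apart from its group (levels of the 4 genes and transcript shares of Sod1 and Nfe2l2, in DMSO and in halofantrine), 2 held one, where a nominal 5% per set gives about 0.6. Both were P23H DMSO replicate 3, which stood apart by the same rule, counted after seeing the data, in 18.7% of all 12031 genes and on the high side in 16.1%. The other DMSO libraries did so in 0.0582% to 0.815% of genes each, so these values are 2 of many in that library. Its Hmox1 level was 110 CPM, where the other DMSO retinas had 3.08 to 5.17 CPM, and the gap made up 0.980 of the range of the group. Its Nfe2l2 level was 119 CPM, where the others had 36.9 to 40.1 CPM, a gap of 0.961 of the range. Both gaps are above Dixon's 95% critical value for 5 libraries. P23H halofantrine replicate 1 was the highest of its group in both genes, with gaps of 0.798 and 0.776, under the critical value for 4 libraries, which that library passed in 5.93% of all genes. The cause was not tested.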

How the results depend on the processing

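The number of the 4 genes past the adjusted threshold was 0 for halofantrine against DMSO, with 1 (Sod1) under limma-voom with sample weights as the exception among 22 alternatives. For DMSO against wild type it was 1, with 2 under DESeq2, 3 under limma-voom with sample weights, 3 without both libraries that stood apart, and 0 to 3 with 1 library left out. For halofantrine against wild type it was 2, with 3 (Sod1, Cat and Nfe2l2) under limma-voom with sample weights, 4 without both libraries, and 0 to 4 with 1 library left out. The lowest counts came from leaving out a wild-type library, and the 3 and 4 from leaving out P23H DMSO replicate 3. In every edgeR fit, the main one included, the groups share 1 estimate of the spread. Wild type is thus assumed to vary like the other groups. The cause was not tested beyond that. Reversed directions were found for halofantrine against DMSO alone, in Cat (-0.039 to 0.14 with 1 library left out) and in Nfe2l2 (-0.53 to 0.18). DESeq2 gave no p for Hmox1. The size of the Hmox1 differences also depended on the method with all libraries in. For DMSO against wild type limma-voom gave 2.76 (SE 4.70, limma-voom adjusted p 0.719), where edgeR gave 4.85. For halofantrine against DMSO it gave -0.68 (SE 1.33, limma-voom adjusted p 0.890), where edgeR gave -2.76.

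Over all genes, the calls for halofantrine against DMSO numbered 1, with 34 by DESeq2, 742 by limma-voom with sample weights, 2 without both libraries, 0 for P23H libraries alone (where 981 genes had an unadjusted p under 0.05) and 0 to 2 with 1 library left out. For DMSO against wild type they numbered 2548, with 3400 by DESeq2, 1727 by limma-voom, 7207 under sample weights, 5387 without both libraries and 519 to 3646 with 1 left out. For halofantrine against wild type they numbered 1580, with 2491, 6622, 5472 and 211 to 3588 for DESeq2, sample weights, both libraries left out and 1 left out, and limma-voom gave 1024. Scaling by library totals shifted the median gene to 0.15 and 0.17 above wild type, from 0.04 and 0.05, and gave 1927 higher and 795 lower in place of 1308 and 1240, and 1198 and 536 in place of 668 and 912. Upper quartile factors gave 1276 and 1165, and 760 and 680. Other scalings moved the balance toward lower, with 1135 and 1449, and 566 and 1144, under RLE factors, and with 1098 and 1548, and 574 and 1181, under the deposited library sizes. No scaling turned the direction of any of the 4 genes. No paired analysis was possible because the labels give no pairing of samples between groups. Depth limits Hmox1 in wild type, with 13 and 11 counts. The alternatives for the pathway lists were not run.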
